A study of Mus musculus with 9 samples.

Results

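Genes of matrix proteolysis, 9 in all, were examined by RNA-Seq in the neurosensory retina of mice with oxygen-induced retinopathy (OIR). They are the gelatinases Mmp2 and Mmp9, the membrane-type matrix metalloproteinase (MMP) Mmp14, the aggrecanase Adamts1, the tissue inhibitors of metalloproteinases Timp1, Timp2, and Timp3, and the plasminogen activators Plau and Plat. These 9 genes were taken by symbol from the 54532 genes of the count table, and each symbol matched 1 row. All 9 passed the filter on low counts and were among the 17540 genes tested.

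MMPs are zinc-dependent enzymes that cleave collagens, laminins, and other proteins of the extracellular matrix and basement membrane, and TIMPs bind their active sites and block them. Plau (urokinase) and Plat (tissue plasminogen activator) convert plasminogen to plasmin, a serine protease that degrades fibrin and can activate pro-MMPs. In the retina, endothelial cells must open the basement membrane to sprout, and both systems are known for their part in that step.

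The retinas came from C57BL/6 mice at P17, and each of the 3 groups held 3 mice. In OIR, pups are kept in hyperoxia and then returned to room air at P12, after which the retina, whose capillaries have regressed, becomes ischemic. Control mice stayed in room air and carry DMSO, the vehicle, in their label. OIR mice received DMSO by intraocular injection at P12, and treated OIR mice received 32-134D, which blocks both HIF-1 and HIF-2, the transcription factors that respond to low oxygen, as a single intraocular injection at P12. The dose is given as 70 ng in the sample labels and as a concentration of 70 ng/μL in the study's methods. One protocol text stands for all 9 mice, so whether control eyes were injected cannot be read from it. Mice are named by the numbers in their labels, so that control comprised mice 1, 6, and 7, OIR mice 3, 5, and 6, and treated OIR mice 2, 5, and 10. Values are listed in this order, and "after treatment" stands for treated OIR.

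Total counts per mouse lay between 16028731 and 27213184. Rod photoreceptor markers were abundant in every mouse, with a summed level of 33357 to 64661 CPM (counts scaled to the library size) over 5 genes. A pair of libraries stood apart by markers of fibroblasts or lens. Control mouse 1 had a summed level of 1016 CPM over 6 fibroblast markers against 38.9 to 238 CPM in the other 8 mice. Col1a1 (487 CPM), Col1a2 (360), and Col3a1 (131) led that sum, and Lum (7.65) was also highest in this mouse. Pdgfra (26.0 CPM) and Dcn (4.33) were not, with 58.3 CPM of Pdgfra in OIR mouse 3 and 13.6 CPM of Dcn in OIR mouse 5. Treated OIR mouse 2 had 15.8% of its counts in crystallin genes, the structural proteins of the lens, against at most 0.186% in any other mouse. Results that rest on either mouse are given with and without it. By sex-linked genes, 1 control, 1 OIR, and 2 treated OIR mice were female.

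The MMPs and Adamts1 share a catalytic zinc held by 3 histidines, next to a glutamate that activates water. The coding sequence of that site is shown for the 4 metalloproteinases because it is the part that makes them 1 functional class. The 12 capitals in each line are the codons of the first histidine, the glutamate, and the other two histidines.
Mmp2: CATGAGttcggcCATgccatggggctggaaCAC
Mmp9: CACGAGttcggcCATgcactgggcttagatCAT
Mmp14: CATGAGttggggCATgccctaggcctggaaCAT
Adamts1: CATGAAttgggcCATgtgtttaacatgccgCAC
On GRCm38 these 33 coding bases lie at chr8:92839279-92839311 (+ strand, exon 8 of 13) in Mmp2, chr2:164951133-164951165 (+ strand, exon 8 of 13) in Mmp9, and chr14:54437627-54437659 (+ strand, exon 5 of 10) in Mmp14. In Adamts1 they are split between exons 3 and 4 of 9 and span chr16:85799191-85799545 on the − strand. Mmp2 and Mmp14 were identical at 27 of 33 bases, Mmp2 and Mmp9 at 25, and Adamts1 was identical to the 3 MMPs at 18 to 20.

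The plasminogen activators are serine proteases instead. The 18 coding bases around their catalytic serine, whose codon is in capitals, are shown for contrast with the zinc site.
Plau: ggcgatTCTggaggaccg
Plat: ggtgacTCGggaggccct
The Plau run is chr14:20842274-20842291 (+ strand) in exon 11 of 11, and the Plat run is chr8:22781948-22781965 (+ strand) in exon 14 of 14, both on GRCm38.

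Per kilobase of gene length, Timp2 was the most abundant of the 9 transcripts in each group by its mean. Its level in CPM per kilobase (RPKM) was 54.0 ± 11.04 in control, 81.3 ± 26.7 in OIR, with 54.8 ± 12.5 after treatment (mean ± SD, n = 3 each), and in control and OIR its lowest mouse lay above the highest mouse of every other member. In control retinas the order after Timp2 was Mmp9 (11.6 ± 1.01 RPKM), Mmp14 (10.6 ± 6.60), Mmp2 (9.92 ± 5.03), Timp1 (7.79 ± 8.28), Timp3 (7.69 ± 2.22), Adamts1 (5.41 ± 1.90), Plat (4.32 ± 1.38), and Plau (3.44 ± 5.40), and all neighbours from Mmp9 downward overlapped. In OIR the order was Timp1 (17.4 ± 18.5), Timp3 (14.7 ± 3.88), Mmp14 (13.5 ± 3.44), Mmp2 (13.0 ± 1.34), Adamts1 (10.4 ± 2.27), Plat (9.66 ± 2.39), Mmp9 (6.22 ± 0.893), and Plau (2.46 ± 1.53), with overlap between neighbours from Timp1 down to Plat only. Mmp9 thus held rank 2 in control and rank 8 in OIR, where its highest mouse lay below the lowest Plat mouse. In treated OIR Timp1 came next to Timp2 by its mean of 38.0 ± 62.1 RPKM, which rests on mouse 2 alone. It was followed by Timp3 (13.5 ± 2.37), Mmp14 (11.01 ± 2.69), Adamts1 (9.83 ± 4.40), Mmp2 (9.76 ± 1.37), Plat (7.01 ± 1.78), Mmp9 (5.89 ± 3.32), and Plau (1.12 ± 0.994), and of these neighbours only Mmp2 and Plat did not overlap.

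The first question is how these genes differed between OIR and room-air retinas. Plat, Timp3, and Adamts1 were higher in all 3 OIR mice than in all 3 control mice (log2 fold change 1.16, 0.94, and 0.94), and Mmp9 was lower in all 3 (−0.90). No member passed an adjusted p of 0.05 by edgeR's quasi-likelihood test on all 9 mice, where 0.941% of all tested genes did. At an unadjusted p below 0.05 there were 5 of 9 members, against 23.8% of all tested genes. Of these, 4 were higher (background 11.1%) and 1 was lower (12.7%). Groups did not overlap for 4 of 9 members against 33.0% of genes, with 3 higher (15.9%) and 1 lower (17.2%). The median log2 fold change was 0.59 over the members and 0.03 over all genes tested. In bulk tissue, fewer cells of a type and less RNA per cell cannot be told apart, and this holds for every difference given here.

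**Figure D1:**
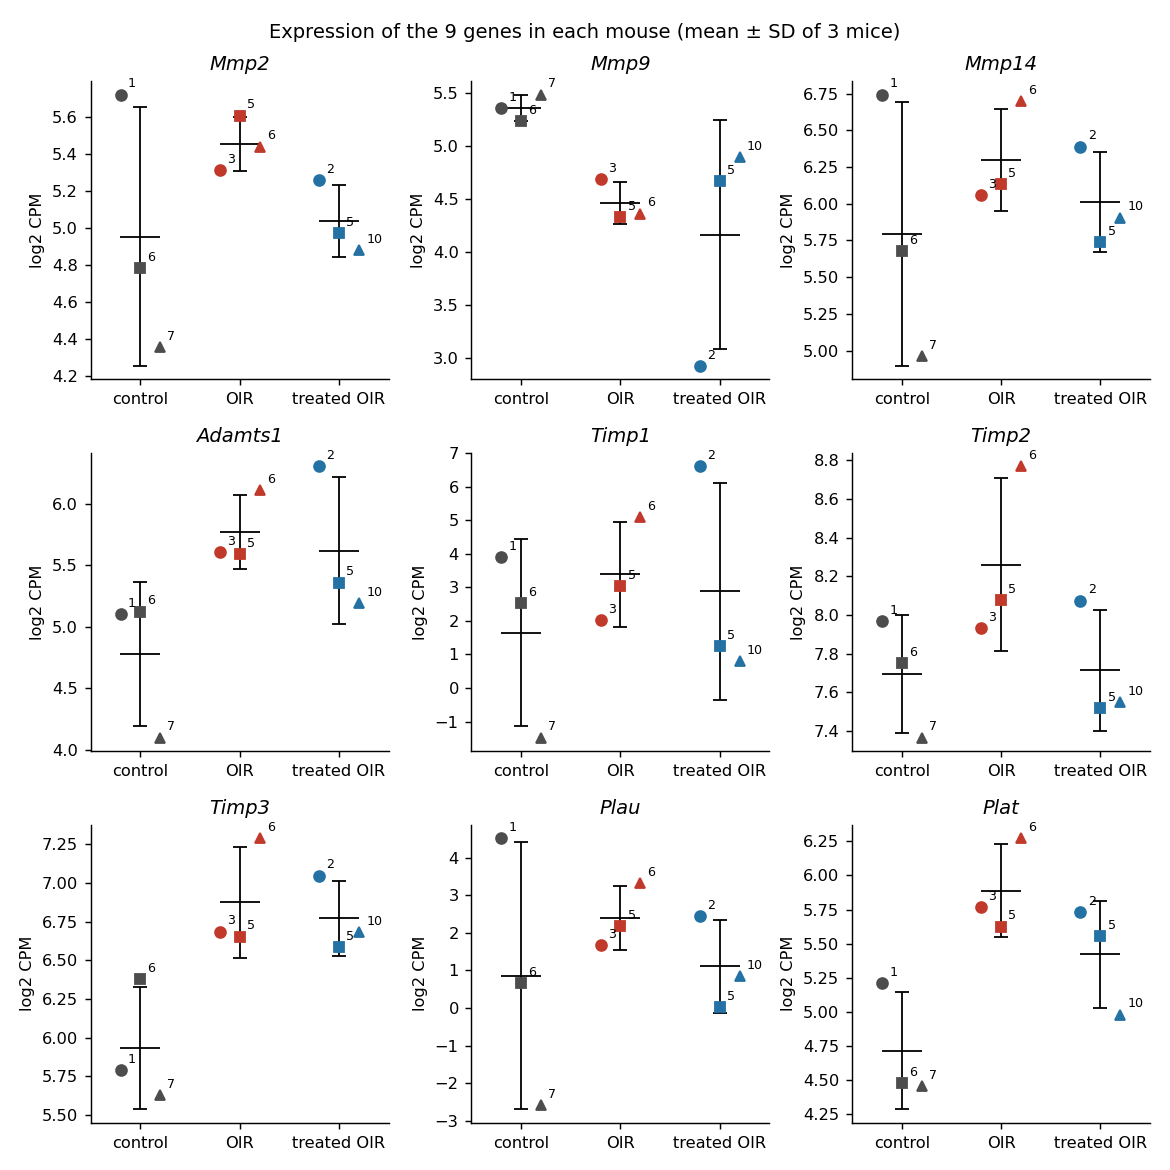
Log2 CPM (y axis) of the 9 genes in control, OIR, and treated OIR retinas (x axis), 1 point per mouse with the number of the mouse beside it. Horizontal lines are the mean and bars the SD of 3 mice, and the y axis differs between panels. Mmp9 is lower, and Adamts1, Timp3, and Plat are higher, in the 3 OIR mice than in the 3 control mice without overlap, while Timp1 and Plau spread over several log2 units within control.

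Mmp2, or gelatinase A, cleaves type IV collagen and denatured collagens. The gene (ENSMUSG00000031740) lies at chr8:92827291-92853420 on the + strand of GRCm38. Log2 CPM was 5.72, 4.78, and 4.36 in control, 5.31, 5.61, and 5.44 in OIR, with 5.26, 4.97, and 4.88 after treatment. The OIR mice were close together and above control mice 6 and 7, but control mouse 1 was the highest of all 9. The log2 fold change in OIR against control was 0.39 (SE 0.30, unadjusted p = 0.228, adjusted p = 0.466 by edgeR), and leaving out single mice it ran from 0.13 without control mouse 7 to 0.87 without control mouse 1. Mmp2 was the only member whose treated OIR mice all lay below the OIR mice, by 0.41 on the log2 scale (95% interval −1.09 to 0.26, adjusted p = 0.9998).

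Mmp9, or gelatinase B, shares these substrates and is a known product of neutrophils and activated glia. It lies at chr2:164940780-164955850 (+ strand, ENSMUSG00000017737). The 3 control mice had 5.36, 5.24, and 5.49 log2 CPM, the OIR mice 4.69, 4.33, and 4.36, and the treated OIR mice 2.92, 4.67, and 4.90. Every OIR and every treated OIR mouse was below every control mouse, and treated OIR mouse 2 was far below the rest. The OIR level was 0.54 times the control level (log2 fold change −0.90, SE 0.40, unadjusted p = 0.0490, adjusted p = 0.208 by edgeR). Against control, treated OIR gave −0.98 (SE 0.40, adjusted p = 0.239), or −0.57 without mouse 2. Neutrophil markers were low in every mouse. All 6 were at 0 counts in at least 1 mouse, Ly6g had 1 count in 1 mouse and 0 in the other 8, and their summed level was 0.149 to 1.85 CPM in control, 2.51 to 7.04 in OIR, with 0.154 to 1.71 after treatment.

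Mmp14 is a membrane-type MMP that cleaves fibrillar collagen at the cell surface and activates pro-Mmp2 together with Timp2. It lies at chr14:54431612-54445364 (+ strand, ENSMUSG00000000957). Levels were 6.74, 5.68, and 4.96 log2 CPM in control, 6.06, 6.13, and 6.70 in OIR, with 6.39, 5.74, and 5.90 after treatment. As for Mmp2, control mouse 1 was above every other mouse, and control mice 6 and 7 were below the OIR mice. The log2 fold change in OIR was 0.34 (SE 0.40, adjusted p = 0.640 by edgeR) with all mice, 0.96 without control mouse 1, 0.021 without control mouse 7, and 0.11 without OIR mouse 6.

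Adamts1 is a secreted protease that cleaves the proteoglycans aggrecan and versican and is known to bind VEGF. It lies at chr16:85793827-85803113 on the − strand (ENSMUSG00000022893). Control mice had 5.10, 5.12, and 4.10 log2 CPM, OIR mice 5.61, 5.59, and 6.11, and treated OIR mice 6.31, 5.36, and 5.19. Both OIR groups lay wholly above control. The level in OIR was 1.92 times that in control (log2 fold change 0.94, SE 0.35, unadjusted p = 0.0239, adjusted p = 0.149 by edgeR), and in treated OIR it was 1.81 times (0.86, SE 0.35, adjusted p = 0.238), or 0.43 on the log2 scale without treated OIR mouse 2.

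Timp1 is the inducible inhibitor, which blocks Mmp9 and most other secreted MMPs. It lies at chrX:20870166-20874735 (+ strand, ENSMUSG00000001131), inside Syn1, which runs on the − strand. Its counts were 424, 115, and 4 in control, 74, 175, and 763 in OIR, with 1536, 37, and 32 after treatment, or 3.90, 2.54, and −1.48, then 2.02, 3.05, and 5.11, then 6.61, 1.24, and 0.80 log2 CPM. In each group the lowest and highest mice lay more than 3 log2 units apart, and all groups overlapped. The log2 fold change was 1.14 in OIR against control (SE 1.56, 95% interval −2.38 to 4.65, adjusted p = 0.699 by edgeR). It was 1.12 in treated OIR against OIR (SE 1.54) although the mean log2 CPM was lower (2.89 ± 3.23 against 3.39 ± 1.57, n = 3 each), and it was −2.96 without treated OIR mouse 2, so no direction can be read. Whether counting used strand is not given in the sources used here. The overlap is one of annotated spans, and whether exons of Timp1 and Syn1 share bases was not checked. Mixing of their reads was therefore not tested. Control mouse 7 had 4 counts of Timp1 and 3766 of Syn1, and treated OIR mouse 2 had 1536 and 698. Syn1, which encodes a synaptic vesicle protein, had 698 to 5418 counts, with a log2 fold change of −1.43 in OIR against control (SE 0.41, adjusted p = 0.0960).

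Timp2, the most abundant inhibitor here, blocks MMPs and also takes part in pro-Mmp2 activation at the cell surface. It lies at chr11:118301069-118355740 (− strand, ENSMUSG00000017466) and overlaps Cep295nl, a gene with at most 18 counts in any mouse. The control mice had 7.97, 7.75, and 7.37 log2 CPM, the OIR mice 7.93, 8.08, and 8.77, and the treated OIR mice 8.07, 7.52, and 7.55. OIR mouse 6 was the highest, and OIR mouse 3 lay just below control mouse 1, so the groups overlapped. The OIR level was 1.51 times the control level (log2 fold change 0.59, SE 0.26, unadjusted p = 0.0459, adjusted p = 0.201 by edgeR), and 0.29 on the log2 scale without OIR mouse 6. Treated OIR retinas differed from control by 0.02 (95% interval −0.55 to 0.60).

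Timp3 is bound to the matrix, inhibits ADAMTS proteases as well as MMPs, and is known to keep VEGF from its receptor VEGFR2. It lies at chr10:86300372-86349506 (+ strand, ENSMUSG00000020044), inside Syn3 on the opposite strand, which had 52 to 140 counts against 765 to 3476 for Timp3. Levels were 5.79, 6.38, and 5.63 log2 CPM in control, 6.69, 6.65, and 7.29 in OIR, with 7.05, 6.58, and 6.68 after treatment. All 6 OIR mice, treated or not, were above all 3 control mice. In OIR the level was 1.91 times that in control (log2 fold change 0.94, SE 0.24, 95% interval 0.39 to 1.48, unadjusted p = 0.0036, adjusted p = 0.0794 by edgeR). In treated OIR it was 1.76 times (0.82, SE 0.24, adjusted p = 0.167), or 0.67 on the log2 scale without treated OIR mouse 2.

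Plau, or urokinase, generates plasmin at the cell surface, where it is bound by its receptor Plaur. It lies at chr14:20836660-20843385 (+ strand, ENSMUSG00000021822). Its counts were 655, 30, and 1 in control, 58, 95, and 221 in OIR, with 84, 15, and 33 after treatment. In log2 CPM this is 4.52, 0.67, and −2.60, then 1.68, 2.18, and 3.33, then 2.44, 0.03, and 0.85. The control group alone spanned from the lowest to the highest of the 9 mice. The log2 fold change in OIR against control was −0.50 (SE 1.28, adjusted p = 0.852 by edgeR), although the mean log2 CPM was higher in OIR (2.40 ± 0.85) than in control (0.86 ± 3.56, n = 3 each), and it was 2.85 without control mouse 1. No direction can be read for Plau from these mice.

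Plat, or tissue plasminogen activator, works on fibrin and is also made by neurons and endothelial cells. It lies at chr8:22757727-22782844 (+ strand, ENSMUSG00000031538). Control mice had 5.21, 4.48, and 4.46 log2 CPM, OIR mice 5.77, 5.62, and 6.27, and treated OIR mice 5.73, 5.55, and 4.98. The OIR mice were all above control, and treated OIR mouse 10 lay between control mice 1 and 6. The OIR level was 2.23 times that in control, the largest fold change of the 9 (log2 fold change 1.16, SE 0.27, 95% interval 0.54 to 1.78, unadjusted p = 0.0022, adjusted p = 0.0679 by edgeR). Leaving out any 1 mouse kept it between 0.94 and 1.45. In treated OIR it was 1.62 times control (0.69, SE 0.27, adjusted p = 0.228), or 0.53 on the log2 scale without treated OIR mouse 2.

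**Figure D2:**
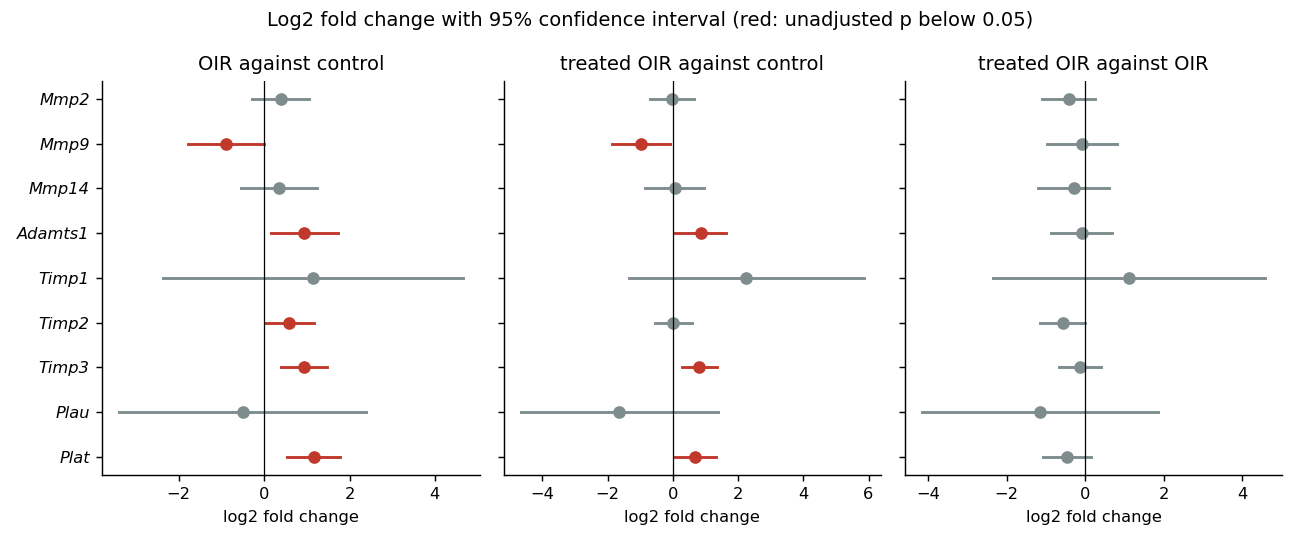
Log2 fold change (x axis) of each gene in OIR against control, treated OIR against control, and treated OIR against OIR, from the edgeR fit on all 9 mice. Points are estimates, lines are 95% confidence intervals, and red marks an unadjusted p below 0.05. Plat (1.16), Timp3 (0.94), Adamts1 (0.94), and Timp2 (0.59) lie above 0 and Mmp9 (−0.90) below 0 in OIR against control, and no gene is red in treated OIR against OIR.

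These calls moved with the libraries that stood apart. Without treated OIR mouse 2, which is in neither group of the OIR comparison but enters the shared estimate of spread, 3 of 9 members passed in OIR against control where 12.5% of genes did. Mmp9 fell (−0.92, adjusted p = 0.0060 by edgeR), and Timp3 (0.92, adjusted p = 0.0272) and Plat (1.13, adjusted p = 0.0236) rose. With control mouse 1 left out as well, a fit added after seeing the data, 5 of 9 members passed against 13.2% of genes. Mmp2 (0.86, adjusted p = 0.0120), Mmp14 (0.95, adjusted p = 0.0385), Adamts1 (1.08, adjusted p = 0.0426), and Plat (1.45, adjusted p = 0.0086) rose and Mmp9 (−0.91, adjusted p = 0.0108) fell in that fit, while Timp3 missed (0.84, adjusted p = 0.0635). Plat passed in 6 and Mmp9 and Timp3 each in 4 of the 12 other settings of the fit, apart from leaving out single mice. Leaving out control mouse 1 alone, control mouse 7, or OIR mouse 6 gave 0 members that passed, and 0 over all genes. Members below an unadjusted p of 0.05 by edgeR then numbered 7, 2, and 2, against 23.1%, 16.5%, and 15.8% of genes.

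The proteases and their inhibitors were also set side by side within each mouse, per length. Summed over Mmp2, Mmp9, Mmp14, and Adamts1 the level was 51.6, 33.9, and 27.1 RPKM in control, 39.3, 40.9, and 49.1 in OIR, with 42.4, 33.1, and 34.0 after treatment. The 3 TIMPs together came to 1.70 to 2.12 times that sum in control, 2.03 to 3.46 times in OIR, with 1.84 to 4.61 times after treatment, with overlap between groups. The 4.61 was treated OIR mouse 2, where Timp1 made up 56.2% of the TIMP sum, and treated OIR mice 5 and 10 had 1.85 and 1.84. The 3.46 was OIR mouse 6, and OIR mice 3 and 5 had 2.03 and 2.22. Mmp9 made up 22.4%, 31.4%, and 46.6% of the protease sum in control, 18.4%, 13.8%, and 11.8% in OIR, with 4.99%, 21.7%, and 24.6% after treatment. The log2 ratio of Timp3 to Mmp9, chosen after their values were seen, was −0.77, −0.06, and −1.06 in control, 0.80, 1.13, and 1.73 in OIR, with 2.94, 0.71, and 0.59 after treatment. Per length, Mmp9 was thus the higher of the pair in every control mouse, narrowly in mouse 6, and Timp3 in every mouse with OIR. Each gene had already separated both OIR groups from control, in opposite directions. Separation of their ratio was therefore fixed in advance and adds no evidence.

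The second question is what 32-134D changed. Treated OIR was first set against control, a comparison that shares its control mice with the one above. Again 0 of 9 members passed by edgeR, where 0.0228% of all genes did, and 4 of 9 were below an unadjusted p of 0.05 against 18.6% of genes, namely Mmp9, which was lower, and Adamts1, Timp3, and Plat, which were higher. Without treated OIR mouse 2, 2 of 9 were below that threshold by edgeR, against 14.2% of genes. The estimates were then −0.57 for Mmp9, 0.43 for Adamts1, 0.67 for Timp3, and 0.53 for Plat. With all mice, groups did not overlap for 3 of 9 against 25.0%, with Adamts1 and Timp3 higher (12.8%) and Mmp9 lower (12.2%). The log2 fold changes in OIR and in treated OIR, each against control, were −0.90 and −0.98 for Mmp9, 0.94 and 0.86 for Adamts1, 0.94 and 0.82 for Timp3, 1.16 and 0.69 for Plat, 0.59 and 0.02 for Timp2, 0.39 and −0.03 for Mmp2, and 0.34 and 0.05 for Mmp14. For Timp1 they were 1.14 and 2.26, the latter −1.86 without treated OIR mouse 2, and for Plau −0.50 and −1.64, or 2.85 and 1.70 without control mouse 1.

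Treated OIR against OIR is the direct test of the drug. None of the 9 members passed it by edgeR (every adjusted p was 0.9998), and none was below an unadjusted p of 0.05, where 4.69% of all genes were (2.39% higher and 2.30% lower) and 0.00% passed after adjustment. With DESeq2 on all 9 mice 1 member was below an unadjusted p of 0.05, against 3.27% of genes. Only Mmp2 had groups that did not overlap, 1 of 9 members against 9.13% of genes (3.74% higher and 5.39% lower). The log2 fold change was below 0 in 8 of 9 members, with a median of −0.29 against 0.01 over all genes. Timp2 had the smallest p (−0.57, SE 0.26, 95% interval −1.15 to 0.01, unadjusted p = 0.0526, adjusted p = 0.9998 by edgeR), followed by Plat (−0.46, 95% interval −1.07 to 0.15). Without OIR mouse 6 these were −0.27 and −0.24. For Mmp9 (−0.08, 95% interval −0.97 to 0.82), Adamts1 (−0.09, −0.87 to 0.69), and Timp3 (−0.12, −0.66 to 0.42) the intervals reach beyond 0.4 in either direction, so neither a partial return to control nor its absence is shown. Without treated OIR mouse 2, the estimate for Mmp9 was 0.35. The others were then all below 0, at −0.75 for Timp2, −0.60 for Plat, −0.50 for Mmp2, −0.49 for Adamts1, −0.48 for Mmp14, and −0.25 for Timp3. Timp1 was at −2.96 and Plau at −2.11. In that fit 3 members had an unadjusted p below 0.05 by edgeR against 13.0% of genes, and none passed the adjusted threshold.

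**Figure D3:**
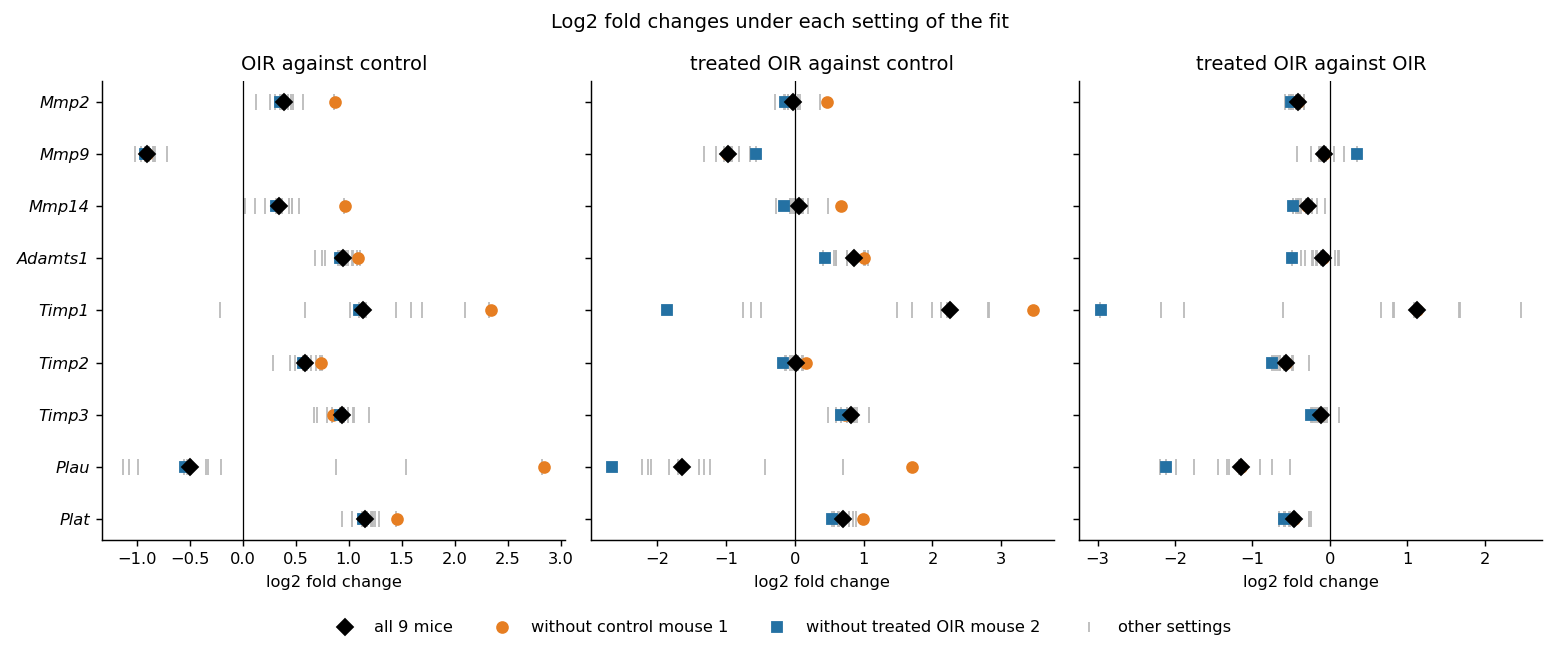
Log2 fold change (x axis) of each gene in the 3 comparisons under every setting of the fit. Black diamonds are the fit on all 9 mice, orange circles leave out control mouse 1, blue squares leave out treated OIR mouse 2, and grey ticks are the other settings. Mmp9, Adamts1, Timp3, and Plat stay on 1 side of 0 in OIR against control, as do Mmp2, Mmp14, and Timp2. Plau moves there from −0.50 to 2.85 without control mouse 1, and Timp1 in treated OIR against OIR moves from 1.12 to −2.96 without treated OIR mouse 2.

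Marker lists of other cells were read in the same mice. Control mouse 1, with the highest fibroblast sum, was also the highest of 9 mice for Plau, Mmp2, and Mmp14, and control mouse 7, with the lowest fibroblast sum (38.9 CPM), was the lowest for 8 of 9 members, all but Mmp9. Its astrocyte (101 CPM) and microglia and macrophage (59.4 CPM) sums were also the lowest of the 9 mice. The fibroblast sum was 38.9 to 1016 CPM in control, 127 to 238 in OIR, with 81.5 to 197 after treatment. Astrocyte markers came to 101 to 256 CPM in control, 279 to 765 in OIR, with 140 to 435 after treatment. Gfap made up most of this sum, with 703 CPM in OIR mouse 6, while S100b was 11.2 to 17.4 CPM in control and 11.4 to 17.1 in OIR. At an unadjusted p below 0.05 by edgeR, 2 of 4 were higher in OIR against control, against 11.1% of all genes. In treated OIR against OIR 2 of 4 were lower, against 2.30%, and in treated OIR against control 1 was lower, against 8.60%. OIR mouse 6, with the highest astrocyte sum, was also the highest OIR mouse for Mmp14, Adamts1, Plat, Plau, and all 3 TIMPs. Microglia and macrophage markers came to 59.4 to 208 CPM in control, 125 to 226 in OIR, with 71.6 to 75.4 after treatment. At an unadjusted p below 0.05 by edgeR, 4 of 6 were lower in treated OIR against OIR, where 2.30% of all genes were. In OIR against control 1 was higher and 1 lower, against 11.1% and 12.7% of all genes. In treated OIR against control 2 were lower, against 8.60%. Endothelial markers gave 123 to 140 CPM in control, 66.6 to 196 in OIR, with 74.1 to 249 after treatment, pericyte markers 187 to 282, 98.5 to 278, and 151 to 418, and Müller glia markers 3356 to 4126, 4054 to 4369, and 2627 to 4042. Pigment epithelium markers came to 202 to 260, 106 to 246, and 137 to 312 CPM, and red blood cell markers to 74.6 to 133, 9.45 to 58.1, and 53.8 to 169. At the same threshold 5 of 5 red blood cell markers were lower in OIR against control, against 12.7% of all genes. In treated OIR against OIR 4 of 5 were higher, against 2.39%. Lens markers came to 110825 CPM in treated OIR mouse 2 and to 6.17 to 836 CPM in the other mice, and treated OIR mouse 2 was the highest of 9 for Adamts1 and Timp1 and the lowest for Mmp9. The part of any of these cells in the members' differences was not tested.

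**Figure D4:**
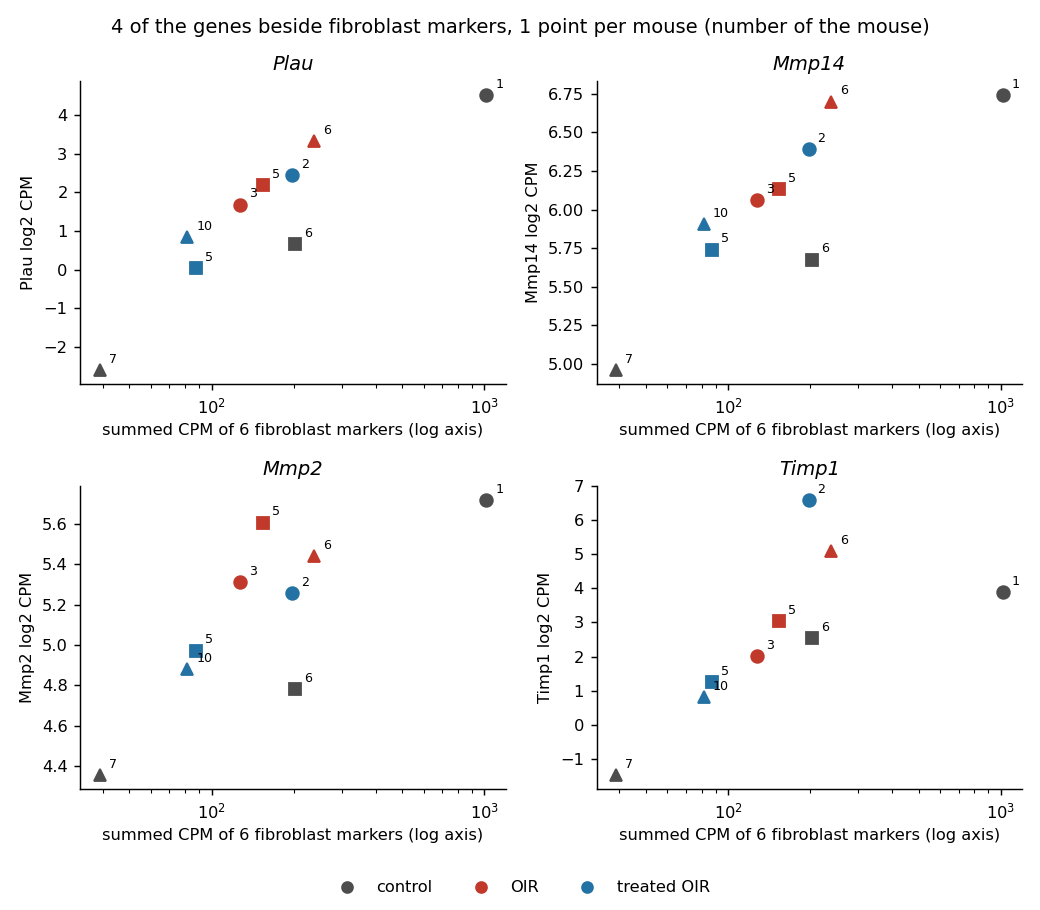
Log2 CPM of Plau, Mmp14, Mmp2, and Timp1 (y axes) beside the summed CPM of 6 fibroblast markers (x axis, log scale), 1 point per mouse, coloured by group and numbered by mouse. Control mouse 1 (1016 CPM) is highest and control mouse 7 (38.9 CPM) lowest on the x axis, and control mouse 7 is lowest on all 4 y axes, as it is for 8 of 9 members. The points share libraries, so the plot is a description.

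For each member, the gene with the most similar profile over the 9 mice (highest Pearson r of log2 CPM among 13977 genes, a description over mice that differ in group and depth) was taken. These were Syk for Mmp2 (r = 0.958), Smim18 for Mmp9 (0.997), Serpinb6a for Mmp14 (0.983), Yap1 for Adamts1 (0.987), Ahnak for Timp1 (0.981), Acaa2 for Timp2 (0.985), Ifnar1 for Timp3 (0.981), and Trp53 for Plat (0.975). Plau was most like another member, Mmp14 (0.982). Over 9 mice a single library can carry such an r. Mmp9 had 2.92 log2 CPM in treated OIR mouse 2 against 4.33 to 5.49 in the other mice. Plau and Mmp14 were both highest in control mouse 1 and lowest in control mouse 7. No r was computed without these mice.

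The remaining genes of the system were counted over 6 lists with 63 genes, of which 51 passed the filter on low counts. In OIR against control 1 of 51 passed the adjusted threshold, against 0.941% of all genes, and 8 of 51 were below an unadjusted p of 0.05, against 23.8%, with 5 higher and 3 lower. In treated OIR against control 8 of 51 were below it, against 18.6%, with 7 higher and 1 lower. In treated OIR against OIR there were 6 of 51, against 4.69%, with 3 higher and 3 lower, and none passed the adjusted threshold in either. The median log2 fold change over the 51 was 0.23, 0.09, and 0.09 in the 3 comparisons, against 0.03, 0.01, and 0.01 over all genes.

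The 1 gene that passed was Adamts3, which processes procollagen and the lymphangiogenic factor VEGF-C. Log2 CPM was 3.85, 4.38, and 3.82 in control, 4.82, 4.96, and 5.29 in OIR, with 4.81, 4.86, and 4.76 after treatment, so that every mouse with OIR was above every control mouse. It rose by 0.997 on the log2 scale in OIR (SE 0.18, unadjusted p = 0.0004, adjusted p = 0.0485 by edgeR), and was 0.77 above control in treated OIR (SE 0.18, adjusted p = 0.119). Of 16 ADAMTS proteases tested beside Adamts1, 3 were higher (background 11.1%) and 1 lower (12.7%) at an unadjusted p below 0.05 in OIR against control, or 4 of 16 where 23.8% of all genes were. Adamts5, an aggrecanase like Adamts1, was higher by 0.53 in OIR (adjusted p = 0.209) and lower in treated OIR against OIR (−0.71, unadjusted p = 0.0144, adjusted p = 0.990), with groups that did not overlap in either. Adamts16 was higher by 1.03 in OIR (adjusted p = 0.191). Adamts15 was lower against control in OIR (−0.96, adjusted p = 0.108) and in treated OIR (−0.99, adjusted p = 0.170), and Adamts17 was higher in treated OIR (1.07, adjusted p = 0.198). For Adamts18 the difference of 1.56 in treated OIR against control (adjusted p = 0.193) was 0.60 without mouse 2. In treated OIR against OIR Adamts18 was higher by 1.29 (unadjusted p = 0.0347, adjusted p = 0.9998 by edgeR), or by 0.35 without mouse 2. There 2 of 16 ADAMTS proteases were below an unadjusted p of 0.05, 1 higher and 1 lower, against 4.69% of all genes.

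The other membrane-type MMPs had a median log2 fold change of −0.47 in OIR against control, and the 7 secreted MMPs tested had one of 0.26. Of 5 membrane-type MMPs, Mmp17 (−1.67, SE 0.50, unadjusted p = 0.0085, adjusted p = 0.103 by edgeR) and Mmp24 (−0.55, SE 0.19, adjusted p = 0.137) were lower in OIR than in control without overlap. Over all genes 17.2% were lower without overlap. Of the 7 secreted MMPs, only Mmp8, the neutrophil collagenase, was below an unadjusted p of 0.05. It was so in treated OIR against OIR (unadjusted p = 0.0329, adjusted p = 0.9998 by edgeR), where 4.69% of all genes were. Its counts were 39, 1, and 0 in control, 6, 22, and 47 in OIR, with 3, 0, and 0 after treatment, too few for a fold change. Control mouse 1 thus lay within the OIR range. Furin, which cleaves the propeptide of Mmp14, was the only 1 of 5 other inhibitors and activators below an unadjusted p of 0.05 in OIR against control (0.23, SE 0.09, adjusted p = 0.184), where 23.8% of all genes were.

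In the plasminogen list, Plg itself, the substrate of Plau and Plat, had 0 counts in all 9 mice and was not tested. Plaur, the receptor of Plau, had 187, 18, and 4 counts in control, 29, 67, and 110 in OIR, with 61, 35, and 29 after treatment. Control mouse 1 was again the highest. Its log2 fold change in OIR was 0.29 (SE 0.92, adjusted p = 0.881 by edgeR), or 2.43 without that mouse. Plgrkt, a plasminogen receptor, was lower in treated OIR against OIR (−0.37, unadjusted p = 0.0404, adjusted p = 0.9998), with no overlap. None of 8 genes of this list was below an unadjusted p of 0.05 against control in either OIR group, where 23.8% (OIR) and 18.6% (treated OIR) of all genes were.

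Of 10 matrix substrates, 1 had an unadjusted p below 0.05 in OIR against control, where 23.8% of all genes did. It was the laminin chain Lamc1 (0.47, SE 0.14, adjusted p = 0.105 by edgeR). In treated OIR against control 3 did, against 18.6%, namely Lamc1 (0.72, SE 0.14, adjusted p = 0.102), Nid1 (2.78, SE 0.63, adjusted p = 0.114), and Hspg2 (1.98, SE 0.57, adjusted p = 0.159). These are components of the basement membrane, and all 3 treated OIR mice were above all control mice for each, against 12.8% of all genes. Lamb1 (0.45) was also higher there without overlap. Nid1 and Hspg2 were highest in treated OIR mouse 2, the mouse with lens transcripts, at 8.05 and 7.84 log2 CPM. Without it the differences from control were 1.64 for Nid1, 0.92 for Hspg2, and 0.65 for Lamc1. In OIR against control Lamc1, Nid1 (0.995), and Hspg2 (0.89) were likewise higher without overlap, against 15.9% of all genes. Bcan (−1.18) and Ncan (−0.27) were lower without overlap, against 17.2%. In treated OIR against OIR 2 of 10 were below an unadjusted p of 0.05, against 4.69% of all genes. These were Nid1 (1.78, adjusted p = 0.990 by edgeR, or 0.67 without mouse 2) and Lamb1 (0.62, adjusted p = 0.9998, or 0.71). Groups overlapped for Nid1 and not for Lamb1.

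**Figure D5:**
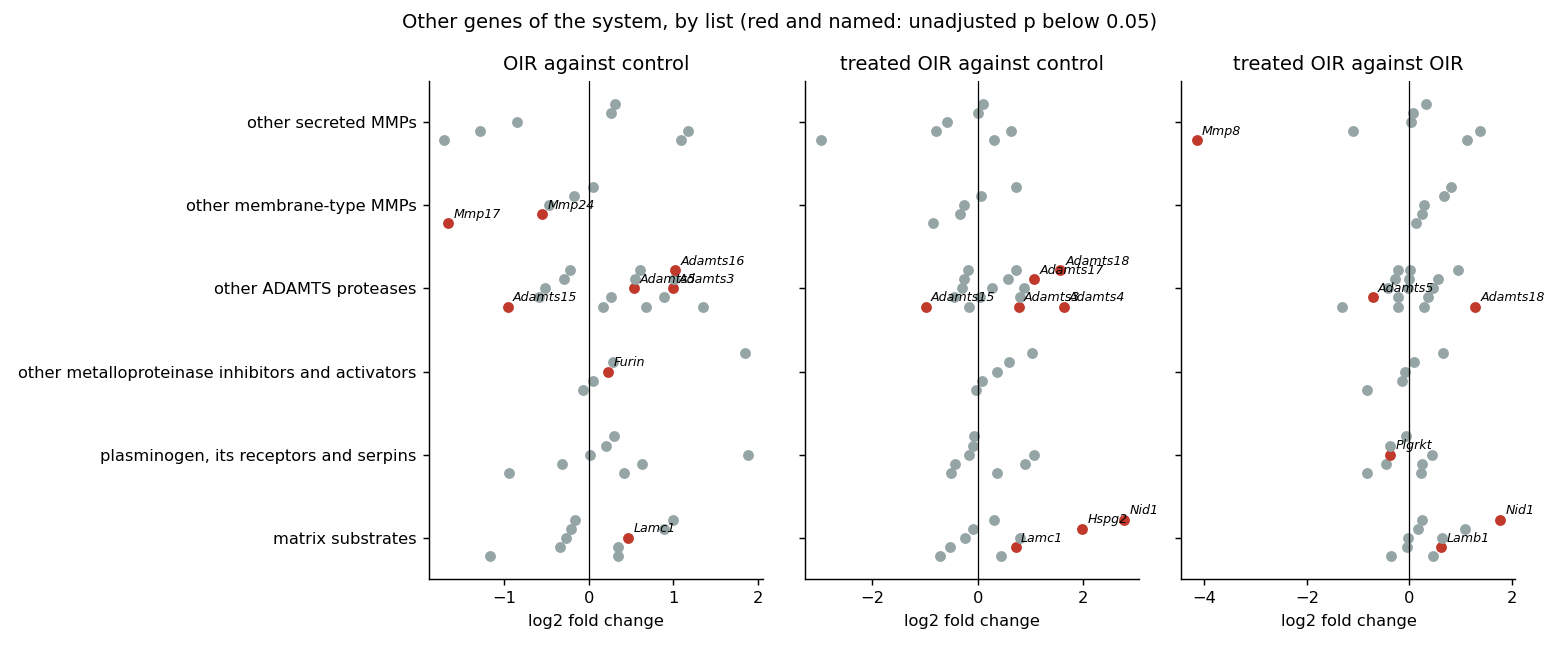
Log2 fold change (x axis) of the 51 other tested genes of the system, 1 point per gene, in 6 lists (y axis) and 3 comparisons. Red, named points have an unadjusted p below 0.05. In OIR against control, Mmp17 (−1.67) and Mmp24 (−0.55) lie below 0 and Adamts3 (0.997) above it.

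Promoter sequence bears on this set because its members were measured after inhibition of HIF, which binds the core letters ACGTG or GCGTG. RefSeq promoters of GRCm38.p6 were used here for 4 members, each cut to the bases before the annotated gene. They are printed for Adamts1 and Timp3, the members among these 4 whose OIR and control groups did not overlap. Capitals mark matches of either core on either strand.
Adamts1: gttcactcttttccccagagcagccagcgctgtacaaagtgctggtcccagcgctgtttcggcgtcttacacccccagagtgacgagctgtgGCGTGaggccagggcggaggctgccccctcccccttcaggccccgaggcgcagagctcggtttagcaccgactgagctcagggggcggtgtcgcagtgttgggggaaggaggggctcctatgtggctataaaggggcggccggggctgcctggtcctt
Timp3: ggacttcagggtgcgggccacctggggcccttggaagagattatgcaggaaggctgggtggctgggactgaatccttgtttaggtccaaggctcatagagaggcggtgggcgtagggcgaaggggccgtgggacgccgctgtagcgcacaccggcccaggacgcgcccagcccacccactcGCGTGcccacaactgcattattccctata
The Adamts1 run of 250 bases is chr16:85803114-85803363 (− strand) and the Timp3 run of 210 bases is chr10:86300162-86300371 (+ strand). Adamts1 held 1 GCGTG at −158 to −154 and Timp3 1 GCGTG at −69 to −65 from the RefSeq start site. Mmp14 held 1 ACGTG on the − strand at −48 to −44, and Timp1 held 1 ACGTG at −82 to −78 and 1 GCGTG at −206 to −202. ACGTG was found in 16.6%, GCGTG in 28.2%, and either in 38.6% of 32851 promoter windows of 250 bases, on both strands. The AP-1 element TGANTCA, searched in the same way, was in none of the 4 and in 6.75% of all windows. A match is a description of letters, not of binding.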

How the data were processed

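RNA-Seq of the neurosensory retina was analysed from 9 C57BL/6 mice at P17, grouped by their labels. The deposited file holds whole-number read counts for each gene, which the authors did not normalize, beside gene positions and lengths. CASAVA and HISAT are named in the submitters' processing notes. The counting tool, the annotation, and the use of strand are not given in the sources used here. GENCODE M21 (GRCm38) holds 54495 of the identifiers, 98.3% of them at the position in the file, all 9 members included. All count columns were mapped to mice by name. Counting error is small at 16028731 to 27213184 counts per mouse for all but the lowest genes, and precision is set by 3 mice per group. Within each group no library was a copy of another, and pairs across groups were not compared.

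From these counts, edgeR 4.0.16 in R 4.3.3 was run with TMM factors and its default filter by group (17540 genes), 1 mean per group over all 9 mice, and the quasi-likelihood test with Benjamini-Hochberg adjustment over all tested genes. A gene passed at an adjusted p below 0.05. P-values are two-sided and rest on mice as replicates. Log2 CPM used a prior count of 2. RPKM is CPM per kilobase of the deposited gene length. All members were named. Of the other genes of the system, those with an unadjusted p below 0.05 in any comparison were named, at most 4 per list and comparison, with Plg and Plaur in any case, as were genes overlapping a member and the gene most like each member with a mean log2 CPM of at least 1. The members and lists were chosen with earlier results of these data known.

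Other settings tried were edgeR on only the 2 groups of a comparison, DESeq2 1.42.0 on these and on all mice, limma 3.58.1 (voom with sample quality weights), upper-quartile scaling, total counts alone, no filter, at least 10 counts in every mouse, a robust fit, sex or a lens score as a term, an absolute log2 fold change above 1 as a further condition, and leaving out each mouse. Leaving out control mouse 1 and treated OIR mouse 2 together was added after seeing the data. The fit was tested on simulated counts. Figures were drawn with matplotlib 3.10.9, and tables were made with pandas 2.3.3 and numpy 2.4.6 under Python 3.11.15.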

Additional observations from a re-analysis of the deposited data

How the results depend on the processing

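The precision is limited by 3 mice per group, a spread estimate shared by all 9, and 2 libraries that stood apart. No paired analysis was possible because the groups compared share fewer than 2 replicate numbers. Of 561 values for single members under other settings, 497 kept their direction and side of the threshold, 23 came to pass it, and 41 changed sign. Timp1 and Plau were not tested with at least 10 counts in every mouse. Causes were not tested, except that leaving out mice changes the samples and the filters change the genes.

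In OIR against control, where 0 members passed, 2 passed with DESeq2 on all 9 mice, 5 with DESeq2 and 3 with edgeR on the 2 groups compared, 2 with limma-voom, 2 with no filter on low counts, 5 with both libraries that stood apart left out, and 0 to 3 when single mice were left out (3 without treated OIR mouse 2). Members below an unadjusted p of 0.05 were 5 with all mice, against 23.8% of genes. They numbered 3 with sex as a term (21.5% of genes) and 8 with both libraries left out (30.3%). Leaving out single mice gave 2 to 7 (15.8% to 28.7% of genes). Over all genes, 165 passed, against 53 with the fold change condition added, 1805 and 2568 with DESeq2 on all mice and on 2 groups, 376 with at least 10 counts, 1771 with edgeR on 2 groups, 359 with a lens score, 2305 with limma-voom, 532 with no filter, 0 with sex, 37 with total counts alone, 2351 with both libraries left out, and 0 to 2272 leaving out single mice. Plau turned positive with limma-voom (1.54), with sex (0.88), and with both libraries left out (2.82), and spanned −1.12 to 2.85 over single mice, while Timp1 spanned −0.21 to 2.34.

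In treated OIR against control, 1 member passed with DESeq2 on all mice. Members below an unadjusted p of 0.05 were 4 with all mice, against 18.6% of genes. They became 2 with edgeR on 2 groups (15.5% of genes), a lens score (14.6%), total counts alone (14.5%), or both libraries left out (13.6%). They became 1 with sex (13.7%), and 1 to 4 leaving out single mice (12.8% to 19.8%). The 4 genes that passed became 656 and 273 with DESeq2 on all mice and on 2 groups, 926 with limma-voom, 18 with no filter, 2 with both libraries left out, 0 with edgeR on 2 groups, a lens score, or sex, and 0 to 6 leaving out single mice. With limma-voom, Mmp2 was 0.077, Timp1 −0.76, and Timp2 −0.15, and with both libraries left out Mmp2 was 0.36, Timp1 −0.64, Timp2 −0.019, and Plau 0.71. A lens score gave −0.071 for Mmp14, −0.50 for Timp1, and −0.072 for Timp2, total counts alone −0.036 for Mmp14 and −0.046 for Timp2, and sex −0.0067 for Mmp14. Over single mice the ranges were −0.28 to 0.46 for Mmp2, −0.27 to 0.67 for Mmp14, −1.86 to 3.46 for Timp1, −0.18 to 0.16 for Timp2, and −2.66 to 1.70 for Plau.

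In treated OIR against OIR, no member passed in any of these settings. Members below an unadjusted p of 0.05 were 0 with all mice, against 4.69% of genes. There was 1 with DESeq2 on all mice (3.27% of genes), edgeR on 2 groups (4.37%), a lens score (5.61%), or no filter (3.78%). There was also 1 with sex (3.81%), total counts alone (5.59%), or upper-quartile scaling (4.83%). There were 2 with DESeq2 on 2 groups (3.27%) or limma-voom (13.9%), and 5 with both libraries left out (14.5%). Leaving out single mice gave 0 to 3 (3 without treated OIR mouse 2, 13.0%). Over all genes 35 and 77 passed with DESeq2 on all mice and on 2 groups, and 1 with limma-voom or no filter. Mmp9 turned positive with limma-voom (0.18) and both libraries left out (0.35), and Timp1 turned negative with a lens score (−2.19), limma-voom (−1.89), sex (−0.61), and both libraries left out (−2.96). Over single mice, Adamts1 spanned −0.49 to 0.12, Mmp9 −0.42 to 0.35, Timp1 −2.96 to 2.47, and Timp3 −0.25 to 0.12.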
